A study of Mus musculus with 38 samples.

Results

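Secreted Wnt antagonists were examined across the cells of the bone-lining niche: the Dickkopf genes Dkk1, Dkk2 and Dkk3, the secreted Frizzled-related genes Sfrp1, Sfrp2, Sfrp4 and Frzb, Wnt inhibitory factor Wif1, and the sclerostin gene Sost. The 9 genes were chosen by symbol, and 7 of them have a row among the 13260 genes of the deposited table. Sfrp2 and Sost were not analysed here. RNA-Seq was performed on 38 libraries of 100 sorted cells each from the femora and tibiae of C57Bl/KaLwRijHsd mice. At an age of 8 to 10 weeks, healthy mice received PBS vehicle intravenously, myeloma-bearing mice received 1000000 5TGM1-GFP cells (a mouse myeloma line marked with green fluorescent protein), and both were culled on day 23. Endothelial cells (CD31+), stromal progenitors (carrying Sca1 without ALCAM) and osteoprogenitors (carrying ALCAM without Sca1) were taken by flow cytometry from digested bone, giving 5 libraries for each condition, or 4 for osteoprogenitors. GFP+ myeloma cells were sorted from the bone lining (5 libraries) and from the central marrow (5 libraries). All groups of mice shared the strain, and all myeloma cells come from a single line.

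Canonical Wnt signalling begins when a Wnt ligand binds a Frizzled receptor together with the co-receptor Lrp5 or Lrp6, after which beta-catenin is no longer degraded and acts with TCF/LEF factors in the nucleus. Wif1 and the Sfrp proteins bind Wnt ligands outside the cell, whereas Dkk1, Dkk2 and sclerostin bind the Lrp co-receptors. Dkk3 is the divergent member of the Dickkopf family, and its place in the pathway is less settled. In bone, Wnt signalling favours the formation of osteoblasts, and DKK1 is known as a secreted product of human myeloma cells.

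Values are RPKM, reads scaled to transcript length and to an effective library size, so levels can be compared between genes as well as between libraries. Library totals, recovered from the steps in the RPKM values, ranged from 9735031 to 34883291 reads on genes. The effective size relative to this total ran from 0.627 in a stromal progenitor library to 1.60 in a central marrow library of myeloma cells. Every endothelial library held Pecam1 (which encodes CD31) at 133 RPKM or more, while the stromal progenitor libraries did not exceed 0.327. Alcam reached 1.97 to 19.2 RPKM in osteoprogenitors and no more than 1.43 in stromal progenitors, and Ly6a (which encodes Sca1) was 776 to 2871 RPKM in stromal progenitors against 0.986 to 95.2 in osteoprogenitors. Endothelial libraries also held Ly6a, at 2195 to 8769 RPKM. In these bulk libraries, fewer cells of a type and less RNA per cell cannot be told apart.

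Wif1 and Dkk1 were the 2 antagonists whose level in each of the 8 osteoprogenitor libraries exceeded that in each of the 30 other libraries, and their upstream sequence is shown for that reason. For Wif1 the gap was narrow, 869 against 849 RPKM. The share of all genes that separate in this way was not counted, so the pattern is given as a description. The upstream sequence comes from RefSeq (GRCm38.p6), whose promoter table matched 6 of the 9 genes. Each sequence holds the bases before the first transcript start in GENCODE, 5′ to 3′ on the strand of the gene. Wif1 lies on the plus strand at chr10:121033960-121100650 with up to 10 exons, and its window is chr10:121033754-121033959. Dkk1 lies on the minus strand at chr19:30545863-30549665 with 4 exons, and its window is chr19:30549666-30549746. Capitals mark a match to a searched motif.
Wif1: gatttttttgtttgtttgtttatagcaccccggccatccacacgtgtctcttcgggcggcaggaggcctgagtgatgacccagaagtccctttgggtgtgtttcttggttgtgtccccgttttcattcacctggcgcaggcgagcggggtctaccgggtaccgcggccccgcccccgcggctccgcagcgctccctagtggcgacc
Dkk1: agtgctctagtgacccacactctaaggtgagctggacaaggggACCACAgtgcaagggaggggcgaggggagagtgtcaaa
The motifs searched on both strands were CTTTGA and CTTTGT (bound by TCF/LEF factors) and TGTGGT and TGCGGT (bound by RUNX factors). Dkk1 held 1 match, to TGTGGT on the opposite strand, starting at base 44 of the 81 printed; 4.83% of all 32851 promoter windows held TGTGGT in the same stretch. The 206 bases of Wif1 held none of these letters. Both stretches were richer in G and C than the median window, at 61.7% for Wif1 and 58.0% for Dkk1 against 51.9% and 50.6%.

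Wif1 was the most abundant of the 7 genes in osteoprogenitors. Mean Wif1 RPKM in osteoprogenitors was 1067 ± 303 in healthy mice and 1368 ± 451 in myeloma-bearing mice (SD, n = 4 each), which placed it at rank 47 of 13260 genes by its mean over the 8 libraries. In healthy osteoprogenitors the libraries held 910, 952, 1519 and 885 RPKM (replicates L, M, N and O), and in those of myeloma-bearing mice 869, 1207, 1455 and 1941 (D, G, I and J). Stromal progenitors came next, with 713, 176, 556, 434 and 470 RPKM in healthy mice (C, L, M, N and O) and 498, 849, 236, 162 and 460 in myeloma-bearing mice (D, E, G, I and J). The ranges of the 2 cell types did not overlap, and the ranges of the 2 conditions overlapped within each.

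Endothelial cells held Wif1 at 0.127 to 12.1 RPKM in healthy mice and 0.0743 to 28.6 in myeloma-bearing mice, with 3 of 10 libraries above 1 RPKM: healthy C at 12.1, healthy O at 10.3 and myeloma-bearing I at 28.6. The myeloma cells themselves did not exceed 0.394 RPKM in either site. The order of the group means was therefore osteoprogenitors, stromal progenitors, endothelial cells and myeloma cells, and the conditions within a cell type, as well as endothelial and myeloma cells, were neighbours with overlapping ranges.

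**Figure D1:**
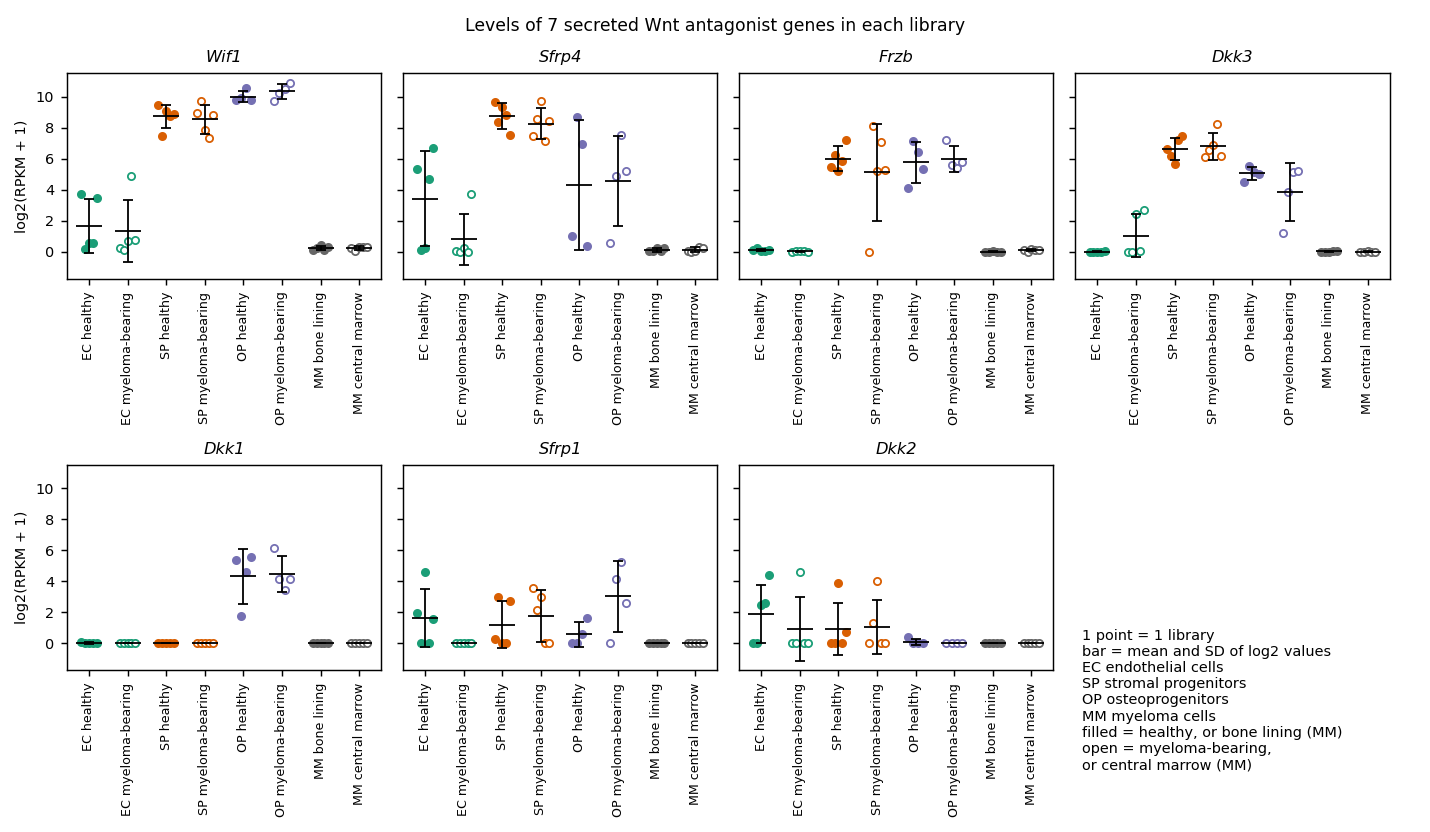
Levels of the 7 genes as log2(RPKM + 1) in each of the 38 libraries, 1 panel per gene, by cell type and condition; points are libraries and bars the mean and SD of the log2 values. Wif1 is above 160 RPKM in every stromal progenitor and osteoprogenitor library, whereas Dkk1 is above 1 RPKM in osteoprogenitors alone.

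Sfrp4 showed the opposite preference, with its highest group means in stromal progenitors. Healthy stromal progenitor libraries held 816, 339, 646, 459 and 185 RPKM (C, L, M, N and O), and those of myeloma-bearing mice held 181, 377, 854, 140 and 353 (D, E, G, I and J). Osteoprogenitor libraries varied far more: 1.07, 423, 126 and 0.309 RPKM in healthy mice (L, M, N and O) and 0.505, 28.9, 189 and 36.0 in myeloma-bearing mice (D, G, I and J). Of the 8 osteoprogenitor libraries, 3 were thus near 1 RPKM or lower and 5 were at 28.9 or higher, and both sets held libraries of both conditions. In endothelial cells Sfrp4 passed 1 RPKM in 4 of 10 libraries, healthy C at 39.7, N at 25.5 and O at 105, and myeloma-bearing J at 12.6. Neighbouring groups in the order of means overlapped throughout for Sfrp4.

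Frzb, also called Sfrp3, had overlapping levels in stromal progenitors and osteoprogenitors. Healthy stromal progenitor libraries held 43.8, 75.6, 37.0, 58.3 and 149 RPKM (C, L, M, N and O), and healthy osteoprogenitor libraries 16.2, 144, 86.8 and 39.5 (L, M, N and O). In myeloma-bearing mice the stromal progenitor values were 0, 277, 37.0, 138 and 37.4 (D, E, G, I and J) and the osteoprogenitor values 150, 47.8, 40.8 and 53.8 (D, G, I and J). Stromal progenitor library D therefore held no Frzb read, where the other 4 of its group held 1805 to 20997. Endothelial and myeloma cells did not exceed 0.175 RPKM, and their ranges lay below those of both osteoprogenitor groups and of healthy stromal progenitors.

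Sfrp1 appeared in some libraries and was close to 0 in others of the same group. Healthy endothelial libraries held 2.83, 0.0260, 23.7, 0 and 1.91 RPKM (C, L, M, N and O), and those of myeloma-bearing mice did not exceed 0.0254. Stromal progenitors ranged from 0.0105 to 6.79 RPKM in healthy mice and from 0.00917 to 10.99 in myeloma-bearing mice. Osteoprogenitors held 0, 0, 0.537 and 2.13 RPKM in healthy mice (L, M, N and O) and 0.0226, 16.6, 37.5 and 5.19 in myeloma-bearing mice (D, G, I and J). All 8 groups overlapped with their neighbours in the order of means, and myeloma cells were at 0.0171 RPKM or lower.

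Among the Dickkopf genes, Dkk1 was restricted by level to osteoprogenitors, for which it is also one of the marker genes of the study, so this pattern is not independent of how the cells were described. Healthy osteoprogenitor libraries held 40.8, 2.34, 23.4 and 46.0 RPKM (L, M, N and O), or 1165, 66, 847 and 1893 reads. Those of myeloma-bearing mice held 69.4, 16.8, 9.78 and 16.4 RPKM (D, G, I and J), or 1572, 690, 348 and 451 reads. The 2 conditions overlapped and had almost the same mean, 28.1 ± 19.7 and 28.1 ± 27.7 RPKM (SD, n = 4 each). In the 30 other libraries Dkk1 reached at most 3 reads and 0.0775 RPKM. The 5 stromal progenitor libraries of myeloma-bearing mice held 0 Dkk1 reads in total. As a floor, the level that 3 reads over those libraries would give was taken (0.0136 RPKM). The mean of the osteoprogenitors of myeloma-bearing mice (28.1 RPKM) was 2072.59-fold this floor. That mean is raised by library D (69.4 RPKM), while G, I and J held 9.78 to 16.8. The fold would therefore be lower without D, and it was not recalculated. The floor covers counting error only. The 10 libraries of 5TGM1-GFP cells held 1 Dkk1 read between them, in a central marrow library, so Dkk1 transcripts were not detectable above counting error in the myeloma cells at this depth.

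Dkk3 was most abundant in stromal progenitors. These held 101, 71.8, 50.8, 146 and 177 RPKM in healthy mice (C, L, M, N and O) and 70.3, 93.7, 117, 310 and 71.9 in myeloma-bearing mice (D, E, G, I and J). Osteoprogenitors held 22.2, 45.6, 35.1 and 31.9 RPKM in healthy mice (L, M, N and O) and 1.38, 13.5, 35.3 and 36.5 in myeloma-bearing mice (D, G, I and J). Every stromal progenitor library exceeded every osteoprogenitor library. Endothelial cells were at 0.0665 RPKM or lower except in myeloma-bearing G at 4.48 and J at 5.66, and myeloma cells did not exceed 0.0584.

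Dkk2 was uneven among libraries of a group. It passed 1 RPKM in 7 of 38 libraries, none of them osteoprogenitors or myeloma cells: endothelial cells of healthy mice M (4.47), N (4.99) and O (20.03) and of myeloma-bearing mice G (23.7), and stromal progenitors of healthy M (13.8) and of myeloma-bearing E (1.498) and G (14.9). In these libraries it was covered by 144 to 1801 reads, while 20 of the 38 libraries had no Dkk2 read. The endothelial and stromal progenitor groups overlapped fully.

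Summed over the 7 genes, the antagonists reached overlapping totals in stromal progenitors and osteoprogenitors. Wif1 led throughout in osteoprogenitors, whereas stromal progenitors had no single leading gene. The summed level was 669 to 1673 RPKM in healthy stromal progenitors and 750 to 1602 in those of myeloma-bearing mice, against 990 to 1792 and 1090 to 2089 in osteoprogenitors. Wif1 made up 60.8% to 92.9% of the sum over the 8 osteoprogenitor libraries and led in each of them. In stromal progenitors it made up 18.7% to 65.5%, and Sfrp4 was the leading gene in 5 of the 10 libraries, Wif1 in 4 and Dkk3 in 1. By condition, Sfrp4 led in 4 of 5 healthy libraries and Wif1 in 1, while in myeloma-bearing mice Wif1 led in 3 of 5 and Sfrp4 in 1. Endothelial libraries held 0.153 to 138 RPKM in all, and myeloma cells at most 0.655.

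**Figure D2:**
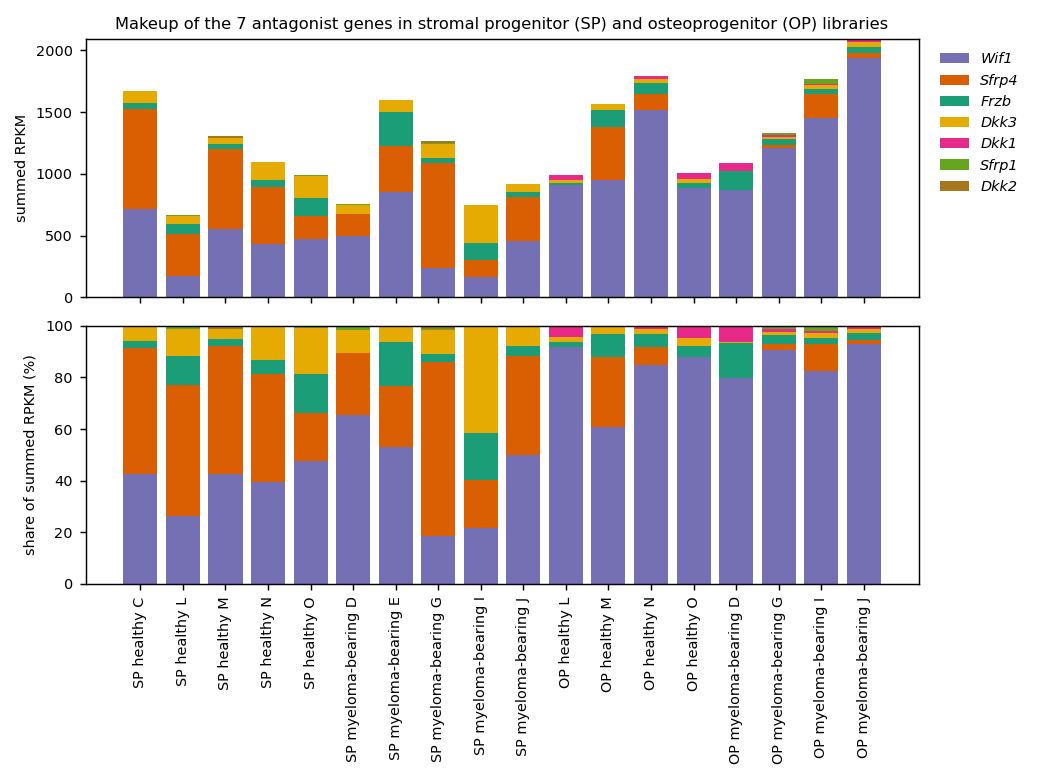
Summed RPKM of the 7 genes (top) and the share of each in that sum in percent (bottom), in the 10 stromal progenitor (SP) and 8 osteoprogenitor (OP) libraries, named by condition and replicate letter. Wif1 fills 60.8% or more of every OP bar, against 18.7% to 65.5% of the SP bars.

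In the 8 osteoprogenitor libraries, Dkk1 and Sfrp4 stood at opposite ends in 5, a pattern that was chosen after the values were seen. The 3 libraries with the highest Dkk1, myeloma-bearing D (69.4 RPKM), healthy O (46.0) and healthy L (40.8), were the 3 with the lowest Sfrp4 (0.505, 0.309 and 1.07). The library with the lowest Dkk1, healthy M (2.34), had the highest Sfrp4 (423), and myeloma-bearing I came next on both scales (9.78 and 189). Healthy N went the other way, with both genes (23.4 and 126) higher than in myeloma-bearing G (16.8 and 28.9) and J (16.4 and 36.0). The Sfrp4 values fall into 2 separate sets, 3 libraries at or under 1.07 and 5 at or above 28.9, with under 6 libraries in each, so no correlation was calculated and the relation was not tested. Both conditions occur in both sets. The summed RPKM of 12 osteoblast lineage markers was 89786, 72391 and 34924 in D, O and L, 18360 in M, and 44517 to 59995 in the other 4. The summed level of 7 fibroblast and tendon markers was 11247, 24968 and 9602 in D, O and L, 24462 in M and 12396 to 16377 in the rest. The part of either in the pattern was not tested.

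**Figure D3:**
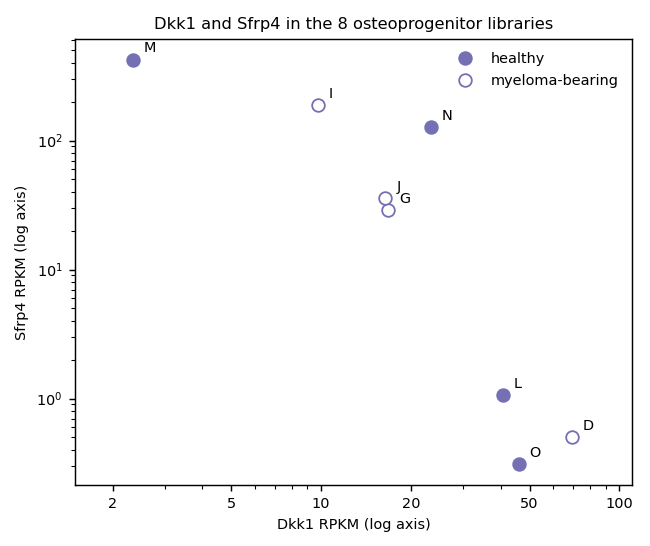
Sfrp4 against Dkk1 in RPKM, both on log axes, in the 8 osteoprogenitor libraries, labelled with the replicate letter; filled points are healthy and open points myeloma-bearing mice. Libraries D, L and O sit at the lower right and M at the upper left.

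To ask which antagonists differ between the 2 bone-forming compartments, osteoprogenitors were compared with stromal progenitors within each condition. Limma was fitted to log2(RPKM + 1) over the genes that passed a minimum of 1 RPKM in 4 or more of the compared libraries, and a gene was called at a Benjamini-Hochberg adjusted p below 0.1 with a log2 fold change above 1 in either direction. In healthy mice Dkk1 was higher in osteoprogenitors, by 4.32 ± 0.89 on the log2 scale (SE, adjusted p = 0.0165). It was the only call among the 5 members that could be tested, against 3.58% of all genes tested. Wif1 (1.28 ± 0.38, adjusted p = 0.105), Sfrp4 (-4.47 ± 1.36, adjusted p = 0.123) and Dkk3 (-1.57 ± 0.47, adjusted p = 0.119) missed the threshold, and Frzb differed by -0.25 ± 0.62 (adjusted p = 0.931).

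In myeloma-bearing mice 4 of the 6 members tested were called, against 3.35% of all genes tested. Dkk1 (4.46 ± 0.85, adjusted p = 0.00827) and Wif1 (1.80 ± 0.44, adjusted p = 0.0447) were higher in osteoprogenitors. Sfrp4 (-3.71 ± 1.00, adjusted p = 0.0691) and Dkk3 (-2.94 ± 0.80, adjusted p = 0.0731) were lower. Frzb (0.85 ± 1.18, adjusted p = 0.862) and Sfrp1 (1.26 ± 1.18, adjusted p = 0.754) were not called. In both fits Dkk1 entered the test through the osteoprogenitor libraries alone and so could hardly fail to differ, and the fold changes of low values are understated on this scale.

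The direction of these 4 members was the same in both conditions, but the calls depended on single libraries and settings. With limma-voom on the recovered reads Wif1 was called in both conditions (adjusted p = 0.0475 in healthy and 0.0185 in myeloma-bearing mice), and Sfrp4 and Dkk3 in neither. Without myeloma-bearing osteoprogenitor D, only Wif1 was called, without G no member was, without I the calls were Sfrp4 and Dkk3, and without J Dkk3 alone. Without stromal progenitor E or G of these mice Sfrp4 and Dkk3 lost their call, without I Dkk3 did and without J Sfrp4 did. In healthy mice Sfrp4 was called without osteoprogenitor M or N, Wif1 without stromal progenitor C and Dkk3 without stromal progenitor M. Leaving out an osteoprogenitor library leaves 3, so Dkk1 no longer passed the filter and was not tested.

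**Figure D4:**
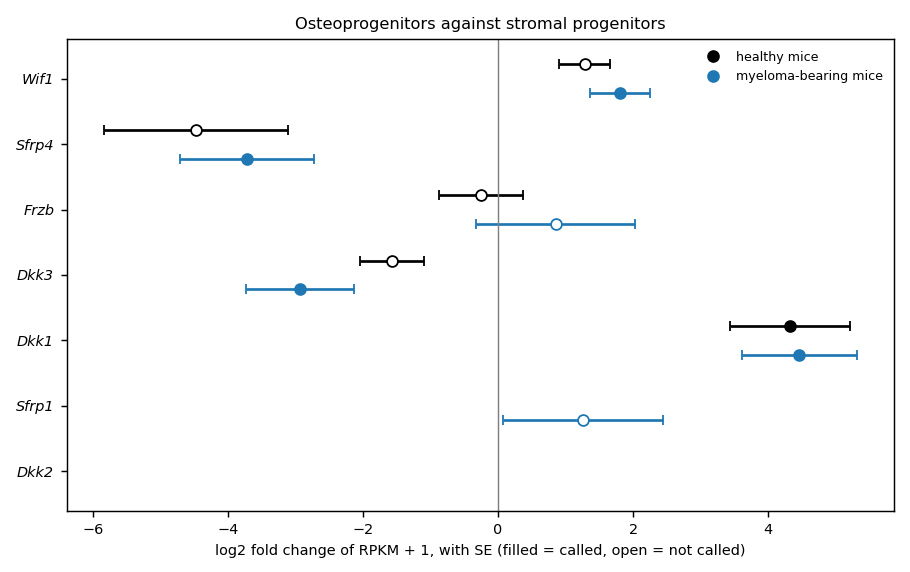
Log2 fold change of RPKM + 1 in osteoprogenitors against stromal progenitors with its SE, in healthy (black) and myeloma-bearing mice (blue), for the members that could be tested; filled points were called. Dkk1 and Wif1 lie to the right of 0 and Sfrp4 and Dkk3 to the left in both conditions.

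Against healthy stromal progenitors, 4 of 6 members tested were called and lower in healthy endothelial cells, against 17.3% of all genes tested. These were Wif1 (-7.04 ± 0.84, adjusted p = 5.17e-05), Dkk3 (-6.62 ± 0.74), Frzb (-5.91 ± 0.75) and Sfrp4 (-5.32 ± 1.16, adjusted p = 0.00649). Dkk3 and Frzb did not exceed 0.175 RPKM in healthy endothelial cells, so they entered the test through the stromal progenitor libraries alone and had to differ, and the count is no result about the members. Dkk2 differed by 0.96 ± 1.02 and Sfrp1 by 0.44 ± 0.99, with adjusted p of 0.631 and 0.839. Against healthy osteoprogenitors, 4 of 6 were again lower in endothelial cells, where 16.5% of all genes were called: Wif1 (-8.32 ± 0.88), Frzb (-5.66 ± 0.87), Dkk3 (-5.05 ± 0.74) and Dkk1 (-4.29 ± 0.88, adjusted p = 0.00562). Dkk1, Dkk3 and Frzb likewise entered through the osteoprogenitor libraries alone, and without any 1 of these 4 libraries they were not tested and Wif1 was the only call. Sfrp4 differed by -0.85 ± 1.92 (adjusted p = 0.86), and without healthy osteoprogenitor M its difference was 0.63. The median gene differed by -0.21 in the first comparison and -0.22 in the second, and by 0.45 and 0.40 after centring each library on its median, which left the same members called. Centring changed the split of all calls in the first from 566 higher and 899 lower to 671 and 480, and in the second from 551 and 810 to 595 and 486.

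The endothelial libraries with Wif1 or Sfrp4 above 1 RPKM were examined for transcripts of other cells. The 7 fibroblast and tendon markers summed to 59.5 RPKM in healthy C, 40.3 in O and 12.2 in N, 25.0 in myeloma-bearing I and 56.0 in J, against 6.51 to 28.9 in the other 5 endothelial libraries and at least 34108 in every stromal progenitor library. The 12 osteoblast lineage markers summed to 6394 in I and 7000 in J, and to 35.5 to 525 in the other 8. The 8 cartilage markers summed to 81.4 in healthy O, 67.5 in M and 21.0 in C, 37.0 in myeloma-bearing J, and 0.905 to 11.8 in the other 6. Their part in the endothelial values was not tested.

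To ask whether the antagonists changed with myeloma, each niche population of myeloma-bearing mice was compared with its healthy counterpart. No member passed the test in any of the 3 populations. In stromal progenitors 5 members were tested and 0 called, against 0% of all genes: Wif1 differed by -0.19 ± 0.46, Sfrp4 by -0.48 ± 0.49, Frzb by -0.87 ± 1.08, Dkk3 by 0.17 ± 0.51 and Sfrp1 by 0.57 ± 0.95 (log2 scale, SE), with adjusted p from 0.988 to 0.996. None had an unadjusted p below 0.05, with limma or limma-voom. The Frzb value rests on library D, which held no read of it, and without D the difference was 0.41.

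In osteoprogenitors 6 members were tested and 0 called by limma or limma-voom, against 0.0115% of all genes. Sfrp1 had the largest difference, 2.45 ± 1.07, with 3 of 4 myeloma-bearing libraries above all 4 healthy ones (unadjusted p = 0.0375, adjusted p = 0.981). It was the only member with an unadjusted p below 0.05, and with limma-voom none was. Sfrp1 just passed the filter, with 3 myeloma-bearing libraries and 1 healthy library above 1 RPKM, mainly through the group where it is high. Leaving out any 1 of these 4 libraries removed it from the test. Dkk3 differed by -1.19 ± 0.84, Wif1 by 0.34 ± 0.32, Sfrp4 by 0.28 ± 1.74, Frzb by 0.23 ± 0.66 and Dkk1 by 0.14 ± 0.89, with adjusted p from 0.981 to 0.998. For Sfrp4 the mean RPKM was lower in myeloma-bearing mice (63.6 against 138) while the log2 difference was above 0, since 1 healthy library held 423. Dkk1, whose product has been studied as a bone-formation inhibitor in myeloma, was thus measured with an SE of 0.89 on the log2 scale, which does not show that its level was the same in both conditions.

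In endothelial cells 2 members were tested and 0 called by limma or limma-voom, against 0% of all genes, with no unadjusted p below 0.05. Sfrp4 differed by -2.62 ± 1.37 (adjusted p = 0.925) and Dkk2 by -0.96 ± 1.10 (adjusted p = 0.979). Over all genes, 414 endothelial, 437 stromal progenitor and 422 osteoprogenitor genes had an unadjusted p below 0.05, and limma-voom called 4, 0 and 0. The difference between the change in stromal progenitors and that in osteoprogenitors was tested as an interaction for 6 members: 0 were called, against 0% of all genes, with an adjusted p near 1 for each and no unadjusted p below 0.05. No member passed the filter in myeloma cells, so none was tested between the bone lining and the central marrow, where 0.203% of all genes were called.

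**Figure D5:**
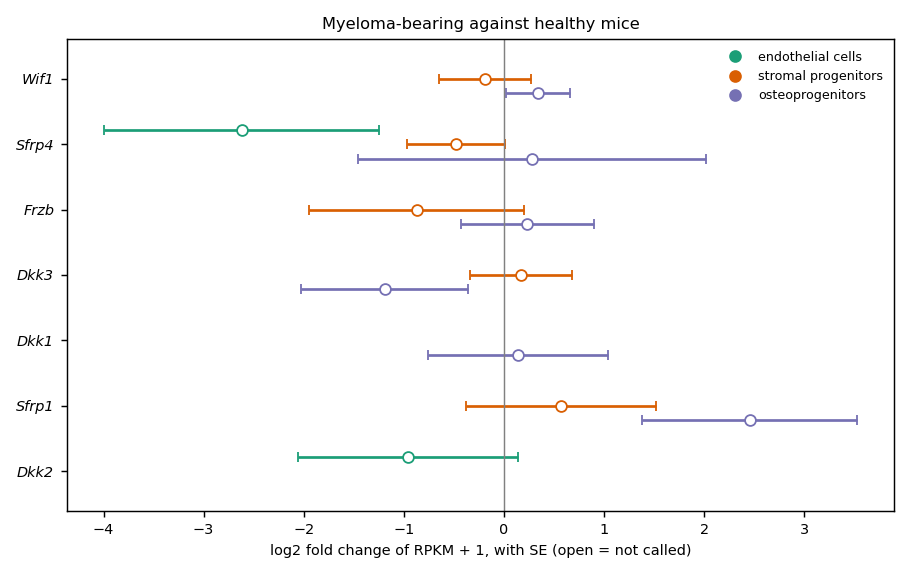
Log2 fold change of RPKM + 1 in myeloma-bearing against healthy mice with its SE, for the members that could be tested in endothelial cells (green), stromal progenitors (orange) and osteoprogenitors (purple). All points are open, since no member was called, and Sfrp1 in osteoprogenitors lies farthest to the right at 2.45.

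The rest of the Wnt pathway was read from a list of 87 genes, of which 62 are in the table. In healthy mice 42 of these could be tested between osteoprogenitors and stromal progenitors, and 4 were higher and 0 lower in osteoprogenitors, against 3.58% of all genes called in either direction, with a median log2 difference of 0.30 against 0.00 for all genes. Among them were 2 further antagonists, Notum, a secreted enzyme that inactivates Wnt ligands (3.97, adjusted p = 0.0376), and Sfrp5 (3.85, adjusted p = 0.0479). Rspo3, an R-spondin that enhances Wnt signalling (3.29, adjusted p = 0.0324), and Wisp1, a Wnt target gene (3.06, adjusted p = 0.0794), were the others. In healthy stromal progenitors Rspo3 was above 1 RPKM in 1 of 5 libraries and Notum and Sfrp5 in 2 of 5, against 4 of 4 osteoprogenitor libraries for each, so these 3 passed the filter through the group where they are high and their calls add no support. Without osteoprogenitor L, N or O, 1 listed gene was called, and with all 38 libraries in the fit 6 were, by limma as by limma-voom. Notum held 15.7 to 79.5 RPKM in healthy osteoprogenitors and 0 to 6.65 in healthy stromal progenitors, and Sfrp5 8.79 to 60.3 against 0 to 6.34.

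In myeloma-bearing mice 45 were tested, with 3 higher and 0 lower, against 3.35% of all genes called, and a median of 0.51 against -0.01 for all genes: Notum (3.87), Wisp1 (3.72) and Tnfrsf19 (3.27), a receptor gene responsive to Wnt, with adjusted p from 0.0624 to 0.0917. Notum and Tnfrsf19 again passed the filter through the osteoprogenitor libraries, being above 1 RPKM in 1 and 2 of the 5 stromal progenitor libraries. At an adjusted p below 0.05 or without the filter no listed gene was called, and 1 was with a pseudocount of 0.1, whereas limma-voom called 4, limma with all 38 libraries 9 and limma-voom with all 38 libraries 8. Without osteoprogenitor D, G or J 0 were called, and without osteoprogenitor I, stromal progenitor D or stromal progenitor G 1 was. With limma-voom Wisp1 was called in neither condition (adjusted p = 0.174 in healthy and 0.119 in myeloma-bearing mice). Wisp1 was 31.4 to 130 RPKM over the 8 osteoprogenitor libraries and 0.0146 to 40.3 over the 10 stromal progenitor libraries. None of the listed genes was called between myeloma-bearing and healthy mice by limma or limma-voom on the compared libraries, with 38 tested in stromal progenitors, 47 in osteoprogenitors and 20 in endothelial cells. With all 38 libraries in the fit, 1 was lower in endothelial cells by limma and by limma-voom, and 1 was lower in stromal progenitors by limma-voom.

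Between healthy endothelial cells and healthy stromal progenitors, 4 of 35 listed genes were higher and 7 lower, against 17.3% of all genes called, and after centring 5 and 1. The counts were 2 and 6 with limma-voom, 2 and 4 without the filter, 2 and 2 at an adjusted p below 0.05, and with all 38 libraries 6 and 13 (limma) or 6 and 16 (limma-voom). Without a stromal progenitor library, 2 or 3 were higher and 1 to 5 lower, with 1 lower without N or O, 3 without C and 4 without M, and without endothelial N 4 were lower. The largest differences were Cd44 (-5.37), the Frizzled receptors Fzd6 (4.07) and Fzd9 (-3.21), Trabd2b (-2.83), a protease that inactivates Wnt ligands, and Pygo2 (-2.81), a beta-catenin co-factor. Fzd9 and Pygo2 did not exceed 0.566 RPKM in healthy endothelial cells and so entered the test through the stromal progenitor libraries alone. Over both conditions Cd44 was above 1 RPKM in 3 and Trabd2b in 2 of 10 endothelial libraries, against 10 of 10 stromal progenitor libraries for each. Fzd6 was above it in 10 of 10 endothelial and 5 of 10 stromal progenitor libraries. These genes too passed the filter mainly through the group where they are high, and their calls add no support. Against healthy osteoprogenitors 4 of 41 were higher and 11 lower in endothelial cells, against 16.5% of all genes called, and without any 1 of the osteoprogenitor libraries 1 to 3 were higher and 2 or 3 lower. The counts were 2 and 8 after centring, 1 and 12 with limma-voom, 2 and 9 at an adjusted p below 0.05 and with the replicate block, and with all 38 libraries 6 and 17 (limma) or 5 and 19 (limma-voom). Notum and Sfrp5 entered this test through the osteoprogenitor libraries alone, and Fzd6, at 0.249 RPKM or lower in healthy osteoprogenitors, through the endothelial libraries alone. Over both conditions Wisp1 and Cd44 were each above 1 RPKM in 3 of 10 endothelial and 8 of 8 osteoprogenitor libraries. They too passed the filter mainly through the group where they are high, and their calls add no support. The largest differences were Wisp1 (-5.52), Notum (-5.15), Fzd6 (5.10), Sfrp5 (-4.82) and Cd44 (-4.54).

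Of the Wnt ligands, 7 of the 19 listed are in the table, and the gene with the highest mean over both conditions (or both sites, for myeloma cells) is given for each population: Wnt11 in stromal progenitors (9.54 ± 13.2 RPKM, SD, n = 10), Wnt4 in osteoprogenitors (7.40 ± 5.04, n = 8), Wnt5b in endothelial cells (4.00 ± 8.93, n = 10) and Wnt6 in myeloma cells (3.84 ± 1.94, n = 10). These orders did not all hold within a condition. Mean Wnt5b in endothelial cells was 7.96 RPKM in healthy and 0.0361 in myeloma-bearing mice, where Wnt11 was 1.08. In stromal progenitors of myeloma-bearing mice Wnt5b was 12.1 and Wnt11 11.6. Wls, which carries Wnt ligands to the cell surface, averaged 108 ± 39.6 RPKM in stromal progenitors, 112 ± 31.1 in osteoprogenitors, 37.0 ± 35.8 in endothelial cells and 0.283 ± 0.822 in myeloma cells. The receptor gene with the highest mean was Fzd8 in stromal progenitors (33.5 ± 27.7), Ryk in osteoprogenitors (24.5 ± 11.6) and Fzd6 in endothelial (33.4 ± 35.2) and myeloma cells (6.65 ± 4.72), again over both conditions or sites. In myeloma-bearing mice Fzd9 was 34.9 and Ryk 30.9 in osteoprogenitors, and Ryk was 26.0 and Fzd8 25.1 in stromal progenitors. Endothelial Fzd6 was 55.1 in healthy and 11.6 in myeloma-bearing mice. Lgr4, an R-spondin receptor, led its list in stromal progenitors (14.4 ± 9.29) and endothelial cells (8.21 ± 11.1), Rspo3 in osteoprogenitors (25.8 ± 38.3) and Znrf3 in myeloma cells (3.12 ± 2.09). In healthy mice, however, Lgr4 was 20.4 and Rspo3 13.4 in osteoprogenitors, and Rspo3 was 9.65 and Lgr4 9.42 in endothelial cells, and 1 osteoprogenitor library of myeloma-bearing mice held Rspo3 at 118. Among antagonists outside the 9 genes, Igfbp4 had the highest mean in endothelial cells (225 ± 128), stromal progenitors (59.4 ± 50.8) and osteoprogenitors (76.7 ± 54.8), and Sfrp5 in myeloma cells (0.859 ± 0.639). Ctnnb1, which encodes beta-catenin, averaged 489 ± 345 RPKM in endothelial cells, 131 ± 31.3 in stromal progenitors and 247 ± 85.9 in osteoprogenitors, and Csnk1a1 led that list in myeloma cells (81.9 ± 17.2). The leading target genes were Ccnd1 in endothelial cells (22.3 ± 20.6), Cd44 in stromal progenitors (86.7 ± 41.6) and myeloma cells (58.7 ± 17.0), and Wisp1 in osteoprogenitors (83.3 ± 32.0).

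The genes whose pattern was most like that of each antagonist were found by Pearson correlation of log2(RPKM + 1) over the 38 libraries, among 12683 genes. The libraries share cell types, so the values are given as a description. Wif1 was nearest to Lum, a collagen-binding proteoglycan gene (r = 0.971), Fat1 (0.970) and Sox9, a transcription factor of cartilage (0.970). Dkk1 was nearest to Cpz, a carboxypeptidase gene (0.966), Bglap3 of the osteocalcin cluster (0.956), whose reads can be split with those of its near-identical neighbours, and the collagen gene Col24a1 (0.9499). Dkk3 was nearest to Slurp1 (0.959), Pcolce2 (0.958) and Igfbp6 (0.955), and Sfrp4 to Spsb1 (0.895), Igfbp6 (0.882) and Abi3bp (0.863). Dkk3 and Sfrp4 thus shared Igfbp6, which averaged 3160 RPKM in stromal progenitors and 354 in osteoprogenitors. Frzb was nearest to Fmod, the fibromodulin gene (0.931), Ngef (0.930) and Lpar1 (0.929). The nearest genes of Sfrp1 (Sgsm2, 0.799, Rpl39l, 0.750, and Engase, 0.702) and of Dkk2 (Msl3l2, 0.715, A630007B06Rik, 0.673, and Adamtsl1, 0.636) were less alike.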

How the data were processed

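RNA was amplified by SmartSeq2, and the authors aligned single-end reads to GRCm38 with STAR 2.4.0, counted them with featureCounts (Subread 1.4.5-p1), kept genes above a CPM minimum and used edgeR to make the deposited RPKM values, which are the values used here. Counting used default parameters, which ignore strand. Groups come from the labels, and replicates are named by the letter of the library code; the series describes libraries of a group as from different mice. The 9 genes and the gene lists were chosen with earlier results of these data known. Low values were whole multiples of the value of 1 read, and reads were recovered for all 13260 genes. Pairs of libraries within a group (72) differed by far more than sampling noise.

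Tests were run with limma 3.58.1 (R 4.3.3) with a trend in the prior, on log2(RPKM + 1), so folds of low genes are understated. Only the libraries compared entered a fit, and a gene had to pass 1 RPKM in 4 or more of these. Calls needed a Benjamini-Hochberg adjusted p below 0.1 over all genes tested and an absolute log2 fold change above 1. On simulated healthy osteoprogenitors against stromal progenitors, 100% of 200 genes changed 8-fold were recovered at a dispersion of 0.1 and 21.5% at a dispersion of 1, where 15.7% of calls were false. For osteoprogenitors of myeloma-bearing against healthy mice these were 100%, 10.5% and 16%. Alternatives were a pseudocount of 0.1, no filter, all 38 libraries, limma-voom on recovered reads, median centring, an adjusted p below 0.05, the replicate letter as a block and each library left out. The named genes were all 9 antagonists, up to 5 called Wnt pathway genes with the largest change in a comparison, the listed gene with the highest mean in each cell type, and the 3 genes most correlated with each antagonist. Promoter sequences were read from RefSeq GRCm38.p6 and positions from GENCODE on GRCm38. Python 3.11.15 was used for descriptive values.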

Additional observations from a re-analysis of the deposited data

Results flagged for a closer look

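Among 32 combinations of an antagonist and a group of 4 or 5 libraries with a value above 1 RPKM, 5 held a library whose distance from the nearest other exceeded the 95% critical value of Dixon's test on log2(RPKM + 1). A group entered this check through any 1 library above 1 RPKM. For Dkk2 and for Wif1 and Sfrp4 in endothelial cells, the flagged library was the only one above that level. The count of 5 can therefore not be set against a rate expected by chance. Wif1 in healthy osteoprogenitors was 1519 RPKM in replicate N against 885 to 952 in the other 3. In endothelial cells of myeloma-bearing mice, Wif1 was 28.6 RPKM in replicate I (861 reads) against 0.0743 to 0.685, Sfrp4 was 12.6 RPKM in replicate J (767 reads) against 0 to 0.175, and Dkk2 was 23.7 RPKM in replicate G (1428 reads) against 0 to 0.0150. Dkk2 in healthy stromal progenitors was 13.8 RPKM in replicate M (1102 reads) against 0 to 0.676. No antagonist moved in opposite directions in every library of 2 cell types.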

How the results depend on the processing

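Of 715 changes of single antagonists recomputed under the alternatives, 654 kept their direction and side of the threshold, 27 lost a call, 9 gained one and 25 changed sign. A member that no longer passed the filter was not recomputed, so calls lost in that way, such as Dkk1 without an osteoprogenitor library, are in none of these counts. Most of the changes were not called in the main fits, so keeping their side of the threshold mostly meant staying uncalled. In healthy osteoprogenitors against stromal progenitors, where 1 antagonist (Dkk1) was called, 2 were called with all 38 libraries (Dkk1 and Sfrp4), and 2 (Dkk1 and Wif1) with limma-voom, with limma-voom over all 38 libraries and with median centring. The replicate block, which needs letters present in both groups and so also leaves out stromal progenitor C, called 2 as well (Dkk1 and Wif1), as did leaving out C alone. In myeloma-bearing mice the 4 calls became 2 with a pseudocount of 0.1, with limma-voom on the compared or on all 38 libraries and at an adjusted p below 0.05 (Dkk1 and Wif1 each time), 2 with all 38 libraries (Dkk1 and Dkk3) and 1 without the filter (Dkk1). The cause was not tested. Dkk1 in osteoprogenitors, myeloma-bearing against healthy, was -0.16 with limma-voom and -0.024 with limma-voom over all 38 libraries.

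Leaving out each library in turn gave 0 to 2 calls in healthy and 0 to 4 in myeloma-bearing osteoprogenitors against stromal progenitors, and 1 to 4 in healthy endothelial cells against osteoprogenitors; the lower counts follow in part from construction, since with 3 osteoprogenitor libraries fewer genes pass the filter. Log2 changes that crossed 0 ranged, for myeloma-bearing against healthy stromal progenitors, from -0.20 to 0.38 (Dkk3), -1.62 to 0.41 (Frzb) and -0.51 to 0.12 (Wif1), and for osteoprogenitors from -0.72 to 0.55 (Dkk1), -1.02 to 1.76 (Sfrp4) and -0.32 to 0.70 (Frzb). Frzb in osteoprogenitors against stromal progenitors ranged from -0.72 to 0.30 in healthy and -0.44 to 1.59 in myeloma-bearing mice. In healthy endothelial cells Sfrp1 ranged from -0.31 to 0.88 against stromal progenitors and Sfrp4 from -2.15 to 0.63 against osteoprogenitors. The difference between the changes in stromal progenitors and osteoprogenitors ranged from -0.56 to 0.72 (Dkk1), -2.24 to 0.54 (Sfrp4) and -1.85 to 0.18 (Frzb).

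Over all genes, a fit with all 38 libraries called 258 endothelial, 31 stromal progenitor and 16 osteoprogenitor genes between conditions, where 0, 0 and 1 were called, and 2376 and 2232 in the endothelial comparisons with stromal progenitors and osteoprogenitors, where 1465 and 1361 were called. The labels do not say whether a letter shared between cell types marks a shared mouse. Libraries sharing a letter did not deviate together (22 pairs, correlation -0.0488 to 0.0930, 7 best with their own letter), and the letters were not taken as pairs in the main fits. These correlations cannot show that the mice differ. On the same libraries (without stromal progenitor C) the replicate block moved the calls over all genes from 343 to 275 in healthy osteoprogenitors against stromal progenitors.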

Other observations

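Sfrp5, an Sfrp gene outside the 9 chosen ones, was the listed antagonist with the highest mean level in the 5TGM1-GFP cells. Bone lining libraries held 1.82, 2.13, 0.395, 0.661 and 0.946 RPKM (D, E, G, I and J), or 17 to 85 reads, and central marrow libraries 0.221, 0.876, 0.330, 0.423 and 0.790, or 9 to 45 reads. These levels lay below the stromal progenitor mean of 2.73 RPKM (0 to 10.3), but that mean rests on 4 of 10 libraries above 1 RPKM. The stromal progenitor median was 0.0312 RPKM, lower than every myeloma cell library. Osteoprogenitors averaged 26.2 RPKM (6.65 to 60.3), and the 10 endothelial libraries were at 0.0304 or lower.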
